A study of Drosophila melanogaster with 12 samples.

Results

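Ion channels that open on a change of membrane voltage or on binding of a transmitter were followed in RNA from the *Drosophila* tracheal system. Their genes were chosen by name, as 37 of the 17697 genes listed for each library, and all 37 were found. They code for 10 nicotinic acetylcholine receptor subunits, 19 potassium channels of 4 classes, 1 voltage-gated sodium channel, 3 voltage-gated calcium channels, 3 GABA receptor subunits and 1 glutamate-gated chloride channel. The libraries came from 4 samples each of adult tracheae, larval tracheae and whole flies. Adult tracheae were taken by hand from the head, thorax and abdomen of w1118 females 5 to 7 days old. Larval tracheae came from w1118 animals of instar 3 and of both sexes, and whole flies were intact w1118 females. Each adult or larval trachea library pooled 3 animals, and the groups of adult and larval tracheae differ in age and in sex makeup as well as in stage. The labels do not say that replicates came from separate cultures, so p-values measure the spread between these libraries.

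Voltage-gated sodium, calcium and potassium channels carry the action potential and trigger transmitter release in neurons and contraction in muscle. In insects acetylcholine is the main fast excitatory transmitter of the central nervous system and acts on nicotinic receptors, which are pentamers of alpha and beta subunits. GABA acts on chloride channels that inhibit neurons, as does glutamate on its own chloride channel in insects, while inward rectifier and two-pore potassium channels set the resting potential and also serve ion transport in epithelia.

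Each library held between 4703048 and 13865281 exon reads for adult tracheae, between 4573842 and 7531621 for larval tracheae and between 5082949 and 9379722 for whole flies. The 20 most abundant genes took between 19.3 and 51.3% of these reads in the adult tracheae, between 31.7 and 39.9% in the larval ones and between 15.1 and 15.7% in whole flies. Markers of tracheal cells were checked by their summed RPKM, which is exon reads scaled to exon length and to each library's gene reads. It lay between 26.7 and 79.5 for adult tracheae, between 754 and 1868 for larval tracheae and between 13.7 and 24.5 for whole flies. Most of the larval sum came from *serp*, *verm* and *Gasp*. Of the 13 markers 11 were lower in adult than in larval tracheae by the edgeR test described below, all but *trh* and *tyn*. For *trh* adult replicate 1 (3.536 RPKM) lay above larval replicate 3 (3.296 RPKM), and whole flies had 0 reads. The sum thus does not measure the share of tracheal cells alone. Genes listed as markers of other tissues were read in the adult preparation too. Those of the fat body summed to 39438 to 85383 RPKM, against 164 to 327 RPKM in the larval one and 14088 to 17633 RPKM in whole flies. By edgeR 8 of these 10 markers were called higher in the adult preparation against each of the other groups. Among those called in both comparisons were *apolpp*, *FASN1*, *Apoltp* and *bmm*. Most of the adult and whole-fly sums came from the yolk protein genes *Yp1*, *Yp2* and *Yp3*, and most of the larval sum from *Desat1*. The paper reports strong expression of these *Yp* genes in *btl* cells of a single-cell atlas, so this sum does not measure fat body alone.

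Channel genes are long, and this bears on how their reads can be counted. The median gene length was 36312 bases for the members and 2169 bases for the 13913 genes with exons. Introns took 37.05% of the gene reads of the median member, against 0.228% for the median gene with at least 10 exon reads. In 8 members, among them *para*, *slo* and *nAChRalpha4*, introns held more reads than exons, and therefore exon reads were used throughout. All 37 members have the start and end that the Ensembl annotation of BDGP6 gives them. For 27 members every exon read was uniquely placed, and for 5 the unique share was under 90%.

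The 2 members with the lowest unique share need care. The 1532 exon bases of *nAChRbeta3* (FBgn0031261, chromosome 2L from 545129 to 547096 on the plus strand, BDGP6) lie entirely within exons of *Ets21C*, a transcription factor gene on the opposite strand, and 5.10% of its exon reads were unique. The exons of *Irk1* (FBgn0265042, chromosome 3R from 23168317 to 23185642) share 61.0% of their bases with *CG46310* on the same strand, and 0.514% of its reads were unique. The counting is not stated to use strand, so reads on the shared bases cannot be assigned to 1 gene.

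**Figure D1:**
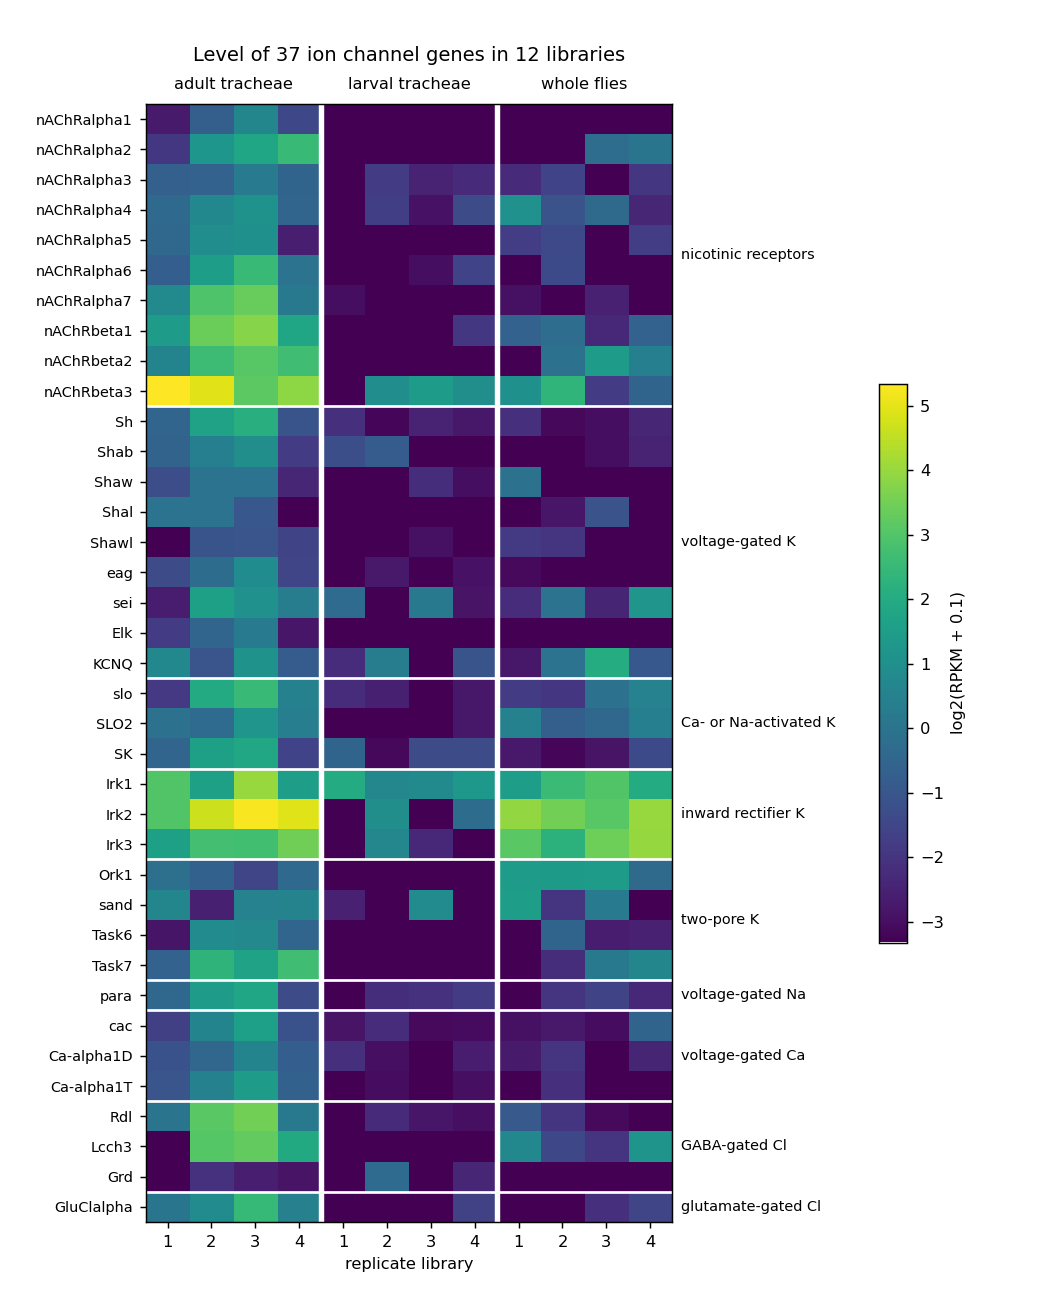
Level of each of the 37 channel genes (rows, grouped by class) in the 12 libraries (columns), as log2(RPKM + 0.1), with adult tracheae at the left, larval tracheae in the middle and whole flies at the right. Adult trachea replicates 2 and 3 are the brightest columns for most genes, larval tracheae are mostly dark, and *Irk2* and *Irk3* are bright in both adult tracheae and whole flies.

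The channel transcripts were read mainly in the adult tracheae. Of all exon reads they took between 296 and 1129 CPM (counts scaled to the library's exon reads) for adult tracheae, between 32.4 and 44.7 CPM for larval tracheae and between 136 and 179 CPM for whole flies, with no overlap between the groups. At least 1 read fell on 34 to 37 members in an adult trachea library, on 11 to 22 in a larval one and on 24 to 28 in a whole-fly one. A mean of at least 1 RPKM was reached by 25 members in adult tracheae, by 2 in larval tracheae (*nAChRbeta3* and *Irk1*) and by 9 in whole flies. In larval tracheae 10 members had 0 exon reads in all 4 libraries, namely *nAChRalpha1*, *nAChRalpha2*, *nAChRalpha5*, *nAChRbeta2*, *Shal*, *Elk*, *Ork1*, *Task6*, *Task7* and *Lcch3*. Since a count of 0 allows up to 3 reads, a level of up to 0.398 to 0.656 CPM in a larval library was not resolved. Absence of exon reads was not absence of all reads: the introns of *nAChRalpha1* held 6, 7, 12 and 16 reads in the larval libraries, and those of *Lcch3* 0, 28, 19 and 9. Intervals and floors of this kind cover counting error only, because the cDNA was amplified by PCR.

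Each comparison was tested with edgeR's quasi-likelihood test over all genes, and a gene was called at a Benjamini-Hochberg adjusted p under 0.05 and a fold above 1.5. Adult tracheae and whole flies ask which channels the adult airways hold beyond the average of the fly. Here 36 members had enough reads to be tested (*Grd* had not), and 16 were higher in adult tracheae, where 16.1% of the 9900 genes tested were called higher. None of the members was lower (0, also at an unadjusted p under 0.05, by DESeq2 and by limma), while 7.36% of all genes were. The median log2 fold change was 3.22 over the members tested and 0.14 over all genes. *nAChRalpha1* and *Elk*, both called, had 0 reads in whole flies and could only be called higher.

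Adult and larval tracheae ask how the channels differ between the organ's stages. Of 36 members tested 25 were higher in adult tracheae, where 19.3% of the 9875 genes tested were, and 0 were lower (also 0 at an unadjusted p under 0.05, by DESeq2 and by limma), where 8.96% were. The median log2 fold change was 5.40, or 5.04 with the 10 genes at 0 reads in larval tracheae set to their lower bounds, against 0.19 over all genes. These 10 genes reached the minimum of 10 reads in 2 libraries through the adult tracheae alone, so they could only be called higher. All but *Shal* were. With total gene reads, introns included, the members' median was 3.76, against 0.16 over all genes. Between larval tracheae and whole flies 24 members could be tested. Of these 6 were lower in larval tracheae (*nAChRbeta2*, *SLO2*, *Irk2*, *Irk3*, *Ork1* and *Lcch3*), beside 27.4% of the 9508 genes tested, and 0 were higher (also 0 at an unadjusted p under 0.05, by DESeq2 and by limma), beside 22.1%. The median was -1.15 over the members and -0.26 over all genes, and in this comparison the members' share of lower calls was close to the background. Of the members tested here, 6 had 0 reads in larval tracheae and could only be called lower. With total gene reads 33 members were tested and their median turned to 0.25, against -0.24 over all genes. The comparisons share libraries, and their values stand side by side without a test of one against another.

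The size of the first 2 counts depended on which adult trachea libraries were in the fit. Without adult trachea replicate 3, 10 of 35 members tested were higher than in whole flies, beside 12.1% of all genes. In the same way 18 of 34 were higher than in larval tracheae, beside 17.6%. Without replicates 2 and 3 together, an omission chosen after seeing the data that left 2 adult libraries, both counts fell. Against whole flies 2 of 32 members tested were higher (*nAChRalpha7* and *nAChRbeta3*), close to the 5.90% of all genes. The members' median log2 fold change in this fit was still 2.43, against -0.04 over all genes. Against larval tracheae 9 of 25 were higher (*nAChRalpha7*, *nAChRbeta1*, *nAChRbeta2*, *nAChRbeta3*, *SLO2*, *Irk2*, *Ork1*, *Ca-alpha1T* and *Rdl*), beside 14.1%. Their median was 3.19 over the members tested, against 0.14 over all genes. Without replicates 3 and 4 together 9 of 33 were higher than in whole flies, beside 13.25% of all genes. Against larval tracheae 11 of 27 were, beside 14.6%. Because the tissue was analysed in bulk, fewer cells of a type and less RNA per cell cannot be told apart in any of these differences.

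**Figure D2:**
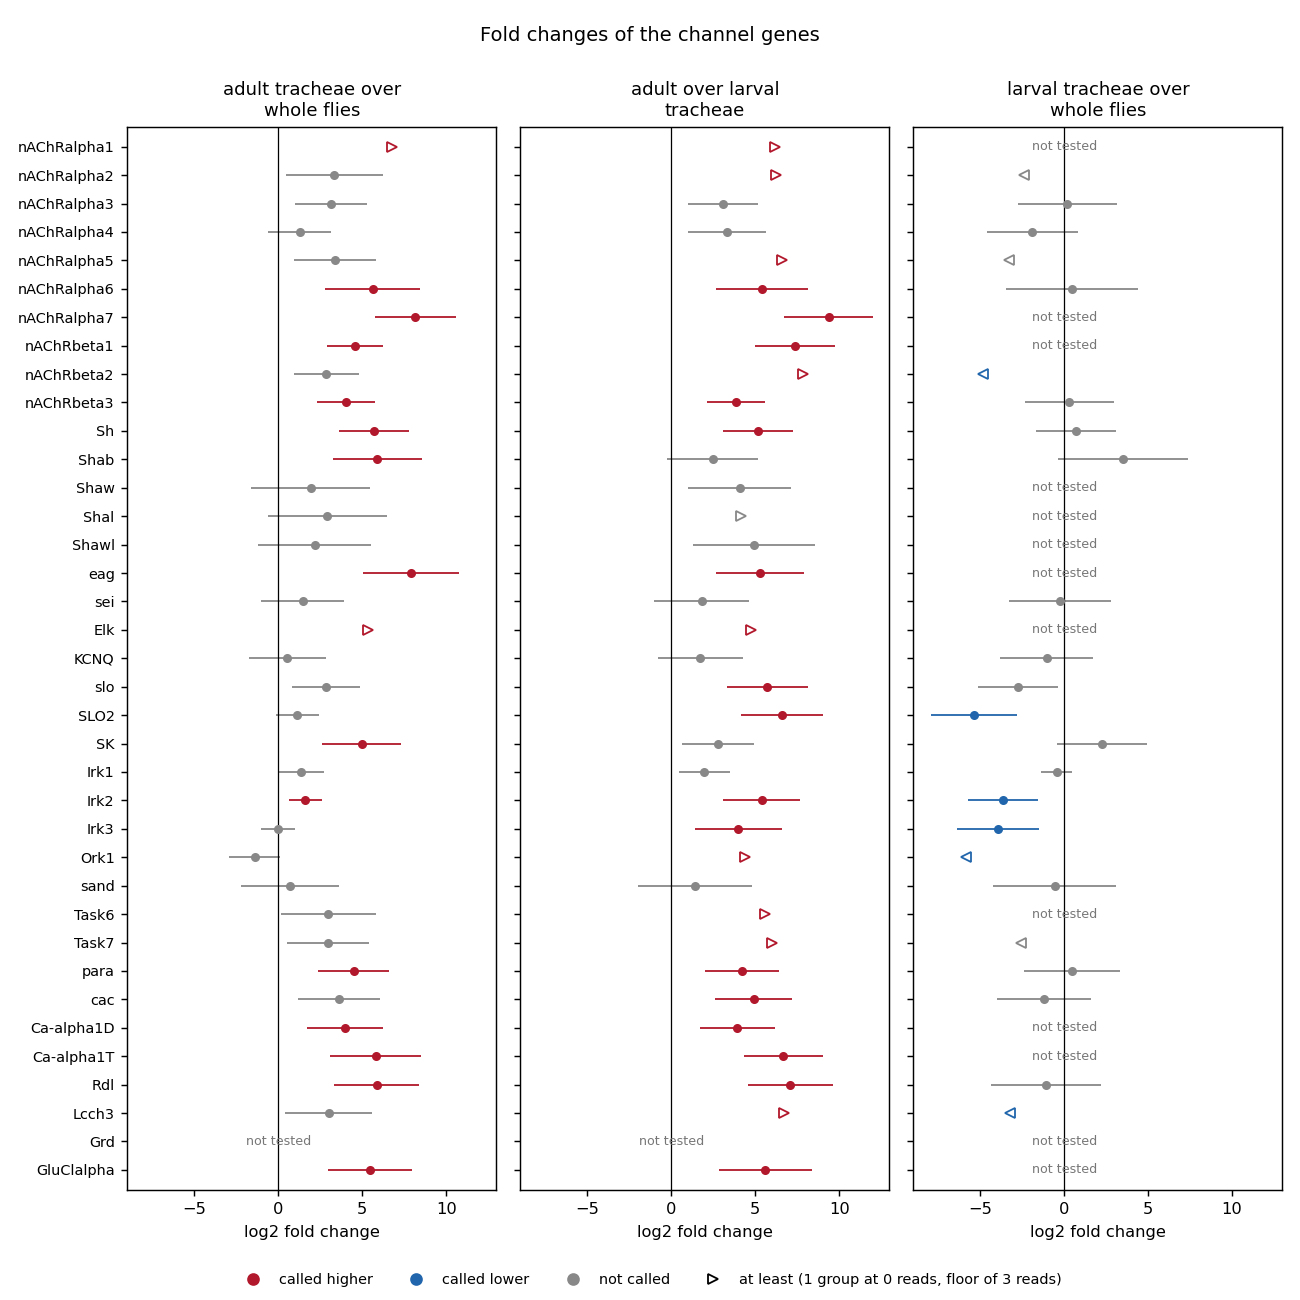
Log2 fold change of each member from edgeR in the comparisons of adult tracheae over whole flies (left), adult over larval tracheae (middle) and larval tracheae over whole flies (right). Lines on the points are 95% intervals, triangles are lower bounds where a group had 0 reads, red and blue mark genes called higher and lower (16, 25 and 6 in all), grey the others.

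All 10 nicotinic receptor subunits were read in adult tracheae. Their summed level was 49.0, 64.8, 56.5 and 33.2 RPKM in the adult trachea libraries, 0.0252, 2.21, 2.74 and 2.65 RPKM in the larval ones and 4.82, 7.79, 4.43 and 3.76 RPKM in the whole flies. Every adult trachea library thus stood above every other library. Without *nAChRbeta3*, whose reads overlap with those of *Ets21C*, the sums were 8.33, 33.8, 47.8 and 18.8 RPKM in the adult trachea libraries, 0.0252 to 0.809 RPKM in the larval ones and 2.77 to 4.25 RPKM in whole flies. Of the 10 subunits 5 were called higher than in whole flies by edgeR, beside 16.1% of all genes (9 at an unadjusted p under 0.05, 9 by DESeq2 and 4 by limma). Against larval tracheae 8 were called higher, beside 19.3% (10 at an unadjusted p under 0.05, 10 by DESeq2 and 9 by limma).

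Among the alpha subunits *nAChRalpha7*, known for its part in the giant fibre escape circuit, had the most reads. Its level was 1.65, 7.67, 10.1 and 1.04 RPKM in adult tracheae, 0.0252, 0, 0 and 0 RPKM in larval tracheae and 0.0321, 0, 0.0723 and 0 RPKM in whole flies. The adult tracheae do not overlap with the other groups, and their replicates 2 and 3 are the highest. Against whole flies the log2 fold change was 8.17 (SE, the standard error, 1.23, adjusted p = 0.00205). In larval tracheae the gene had 1 exon read against 1319 in adult tracheae, a ratio of 880 with a 95% counting interval from 158 to 34777 (adjusted p = 0.000811). Its introns held 4, 41, 10 and 7 reads in the larval libraries. With total gene reads the log2 fold change over larval tracheae was lower, at 4.09 (SE 1.01, adjusted p = 0.0136). The calls against whole flies and against larval tracheae held in every alternative that could test the gene.

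The gene *nAChRalpha6* codes for the subunit through which the insecticide spinosad acts. It was read at 0.5002, 2.74, 5.59 and 0.880 RPKM in adult tracheae, at 0, 0, 0.0256 and 0.236 RPKM in larval tracheae and at 0, 0.286, 0 and 0 RPKM in whole flies. It was called higher in the adult tracheae than in whole flies (log2 fold change of 5.62, SE 1.45, adjusted p = 0.0194) and than in larval tracheae (5.41, SE 1.40, adjusted p = 0.0160). Both calls were lost without adult trachea replicate 3 (adjusted p = 0.0729 and 0.0677). The introns of *nAChRalpha6* held 17, 29, 44 and 27 reads in the larval libraries. With total gene reads its log2 fold change over larval tracheae was lower, at 3.125 (SE 0.91, edgeR, adjusted p = 0.0279).

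The genes *nAChRalpha1*, *nAChRalpha2* and *nAChRbeta2* are neighbours on chromosome 3R, within 24393896 to 24515106. *nAChRalpha1* (FBgn0000036) had 3, 41, 242 and 38 exon reads in adult tracheae and 0 in all larval and whole-fly libraries. That made it at least 108-fold higher than in whole flies (adjusted p = 0.0126) and at least 72.0-fold higher than in larval tracheae (adjusted p = 0.0142), counting 3 reads over the group at 0. With total gene reads, introns included, the log2 fold change of *nAChRalpha1* against larval tracheae was 2.87 (SE 1.11, adjusted p = 0.0830), which ends that call. *nAChRalpha2* was at 0.163, 2.25, 3.44 and 5.61 RPKM in adult tracheae, 0 in all larval libraries and 0, 0, 0.758 and 0.925 RPKM in whole flies. It was at least 75.2-fold higher than in larval tracheae (adjusted p = 0.0104) and was not called against whole flies, where the groups overlap (log2 fold change of 3.33, SE 1.48, adjusted p = 0.115).

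*nAChRbeta2* was read at 1.40, 6.10, 8.53 and 6.38 RPKM in adult tracheae, at 0 in all larval libraries and at 0, 0.856, 2.63 and 1.24 RPKM in whole flies. It was at least 234-fold higher in adult than in larval tracheae (adjusted p = 0.00126), and was not called against whole flies (log2 fold change of 2.86, SE 0.99, adjusted p = 0.0567). In larval tracheae it was at least 28.8-fold lower than in whole flies (adjusted p = 0.0235, and 0.0572 without whole-fly replicate 3). All 3 neighbouring genes thus lack exon reads in larval tracheae, while adult trachea replicate 3 is highest for *nAChRalpha1* and *nAChRbeta2* and replicate 4 for *nAChRalpha2*.

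The beta subunit *nAChRbeta1*, a common partner of alpha subunits in the fly, was read at 2.68, 10.6, 13.5 and 3.36 RPKM in adult tracheae, at 0, 0, 0 and 0.165 RPKM in larval tracheae and at 0.561, 0.749, 0.0936 and 0.557 RPKM in whole flies. Its lowest adult trachea library was above every library of the other groups. The log2 fold change was 4.56 (SE 0.86, adjusted p = 0.00532) against whole flies and 7.38 (SE 1.22, adjusted p = 0.00160) against larval tracheae.

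The overlapped subunit *nAChRbeta3* had the highest mean of the class in each group and a different order of libraries. It was at 40.6, 30.99, 8.77 and 14.4 RPKM in adult tracheae, 0, 1.82, 2.602 and 1.84 RPKM in larval tracheae and 1.94, 5.02, 0.182 and 0.601 RPKM in whole flies. Adult trachea replicate 1 is the highest here. Its log2 fold change was 4.04 (SE 0.89, adjusted p = 0.0105) against whole flies and 3.85 (SE 0.89, adjusted p = 0.00976) against larval tracheae. Reads across its own exon junctions numbered 26, 23, 2 and 23 in adult tracheae and 0 in all other libraries, and its unique exon reads numbered 19, 23, 2 and 23 against 0 elsewhere.

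The other alpha subunits were read at low levels. *nAChRalpha5* averaged 1.13 ± 0.92 RPKM in adult tracheae, against 0.169 ± 0.119 RPKM in whole flies (SD, n = 4 each), with 0 reads in larval tracheae, above which the adult level was at least 97.6-fold higher (edgeR, adjusted p = 0.00874). With total gene reads the log2 fold change of *nAChRalpha5* over larval tracheae was 4.40 (SE 1.23, adjusted p = 0.0236), still a call. Against whole flies *nAChRalpha5* was not called (log2 fold change of 3.37, SE 1.24, adjusted p = 0.0677), and adult trachea replicate 4 lies below 3 whole-fly libraries. *nAChRalpha3* averaged 0.697 ± 0.266 RPKM in adult tracheae, 0.0916 ± 0.0767 in larval tracheae and 0.124 ± 0.097 in whole flies, and missed the threshold in both comparisons (adjusted p = 0.0594 and 0.0566). *nAChRalpha4* was at 0.675, 1.57, 2.09 and 0.610 RPKM in adult tracheae, against 1.99, 0.368, 0.690 and 0.0912 RPKM in whole flies. These groups overlap, and its 95% interval of the log2 fold change, from -0.62 to 3.15, takes in 0.

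**Figure D3:**
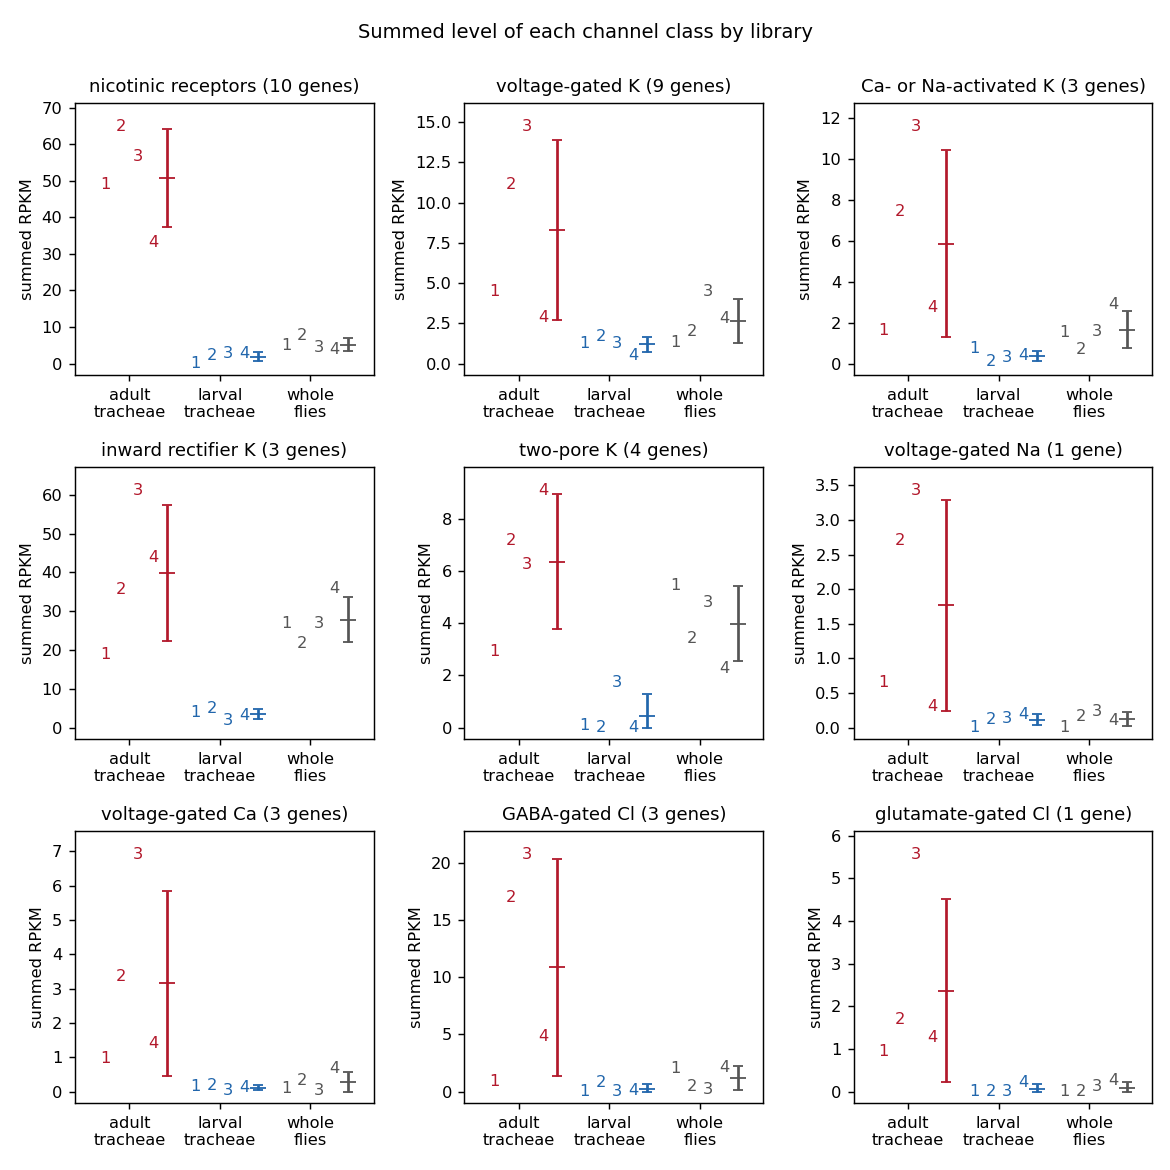
Summed RPKM of each channel class by library, with the digits 1 to 4 standing for the replicate libraries and the bars for mean ± SD (n = 4 each, cut at 0), for adult tracheae, larval tracheae and whole flies from left to right; every panel has its own linear axis. Adult tracheae lie above both other groups for nicotinic receptors (33.2 to 64.8), while inward rectifiers lie between 18.7 and 61.0 for adult tracheae and between 21.7 and 35.7 for whole flies.

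Of the transmitter-gated chloride channels, *Rdl* and *GluClalpha* were called higher in both comparisons, *Lcch3* against larval tracheae alone, and *Grd* was not tested. The subunit gene *Rdl* (FBgn0004244, chromosome 3L from 9145838 to 9182149), whose product forms the main GABA receptor and is the target of the insecticide dieldrin, was at 0.909, 8.67, 11.2 and 1.04 RPKM in adult tracheae. It was at 0, 0.108, 0.0443 and 0.0272 RPKM in larval tracheae and at 0.433, 0.146, 0.0155 and 0 RPKM in whole flies. All adult trachea values are above all others, and replicates 2 and 3 stand well above replicates 1 and 4. The log2 fold change was 5.85 (SE 1.29, adjusted p = 0.0105) against whole flies and 7.09 (SE 1.29, adjusted p = 0.00271) against larval tracheae.

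*Lcch3*, a GABA receptor subunit of the beta type, was at 0, 8.17, 9.48 and 3.76 RPKM in adult tracheae, 0 in all larval libraries and 1.56, 0.266, 0.146 and 2.13 RPKM in whole flies. Adult trachea replicate 1 had no read. The gene was at least 106-fold higher in adult than in larval tracheae (adjusted p = 0.0185) and was not called against whole flies (log2 fold change of 3.01, SE 1.32, adjusted p = 0.112). In larval tracheae it was at least 9.45-fold lower than in whole flies (adjusted p = 0.0329), a call lost without any 1 of the larval libraries (adjusted p = 0.0511 to 0.0581). With total gene reads neither call of *Lcch3* stood: adult over larval tracheae gave a log2 fold change of 2.43 (SE 1.41, adjusted p = 0.243), and larval tracheae over whole flies turned to 0.41 (SE 1.41). Of its exon reads 50.3% were unique, and it overlaps *Ranbp16* on the opposite strand. *Grd*, a related subunit gene, had 0, 4, 4 and 2 exon reads in adult tracheae, 0, 21, 0 and 3 in larval tracheae and 0 in whole flies, too few for the test in any comparison.

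The glutamate-gated chloride channel *GluClalpha*, the target of ivermectin, was at 0.939, 1.70, 5.55 and 1.28 RPKM in adult tracheae, 0, 0, 0 and 0.221 RPKM in larval tracheae and 0, 0, 0.126 and 0.250 RPKM in whole flies. The adult tracheae do not overlap with the other groups, and replicate 3 stands apart from the other 3. The log2 fold change was 5.47 (SE 1.29, adjusted p = 0.0137) against whole flies and 5.60 (SE 1.42, adjusted p = 0.0148) against larval tracheae. Without adult trachea replicate 3 neither was called (adjusted p = 0.0606 and 0.0671).

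The sodium channel of the action potential is encoded by *para* (FBgn0285944, chromosome X from 16455027 to 16533096). It was read at 0.656, 2.7, 3.42 and 0.307 RPKM in adult tracheae, at 0, 0.120, 0.134 and 0.188 RPKM in larval tracheae and at 0, 0.155, 0.239 and 0.102 RPKM in whole flies. The lowest adult trachea value is above the highest of the others, by a small margin. The gene was called higher than in whole flies (log2 fold change of 4.49, SE 1.08, adjusted p = 0.0146) and than in larval tracheae (4.21, SE 1.12, adjusted p = 0.0186). The first call was lost with an offset for exon length (adjusted p = 0.0973) and the second without adult trachea replicate 3 (adjusted p = 0.0619). Larval tracheae and whole flies were not distinguished (log2 fold change of 0.45, 95% interval from -2.41 to 3.30).

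Of the calcium channels, *cac* codes for the channel of presynaptic terminals, *Ca-alpha1D* for the L-type channel of muscle and neurons and *Ca-alpha1T* for the T-type channel. *cac* was at 0.212, 1.41, 2.87 and 0.355 RPKM in adult tracheae, 0.0366, 0.117, 0.0167 and 0.0205 RPKM in larval tracheae and 0.0311, 0.0509, 0.0234 and 0.586 RPKM in whole flies. It was called higher than in larval tracheae (log2 fold change of 4.90, SE 1.17, adjusted p = 0.0110) and not against whole flies, where replicate 4 lies above 2 adult libraries (3.60, SE 1.25, adjusted p = 0.0567). *Ca-alpha1T* was at 0.385, 1.31, 2.63 and 0.550 RPKM in adult tracheae, 0, 0.0212, 0 and 0.0280 RPKM in larval tracheae and 0, 0.123, 0 and 0 RPKM in whole flies. Its log2 fold change was 5.79 (SE 1.39, adjusted p = 0.0145, and 0.0531 without adult trachea replicate 3) against whole flies and 6.68 (SE 1.20, adjusted p = 0.00261) against larval tracheae. The introns of *Ca-alpha1T* held 21, 30, 5 and 21 reads in the larval libraries. With total gene reads its log2 fold change over larval tracheae was lower, at 3.52 (SE 0.82, edgeR, adjusted p = 0.0101).

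The L-type gene *Ca-alpha1D* was the least firm of the 3. It averaged 0.721 ± 0.464 RPKM in adult tracheae, 0.0525 ± 0.0539 in larval tracheae and 0.0714 ± 0.0608 in whole flies (SD, n = 4 each). It was called higher in adult tracheae in both comparisons (edgeR, adjusted p = 0.0303 and 0.0261). The first call was lost without adult trachea replicate 2 or 3 or without whole-fly replicate 1, 2 or 4 (adjusted p = 0.0506 to 0.119). The second was lost without adult trachea replicate 3 or larval trachea replicate 2 or 4 (adjusted p = 0.0547 to 0.104).

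Voltage-gated potassium channels, which repolarize the membrane, had 4 of 9 members called higher than in whole flies, beside 16.1% of all genes. Against larval tracheae 3 of 9 were called higher, beside 19.3%. The A-type channel gene *Sh* (FBgn0003380, chromosome X from 17924307 to 18063247), which ends action potentials early, had the most reads. It was at 0.613, 3.07, 4.22 and 0.372 RPKM in adult tracheae, 0.129, 0.0123, 0.0795 and 0.0488 RPKM in larval tracheae and 0.131, 0.0135, 0.0247 and 0.0897 RPKM in whole flies. No adult trachea library overlaps with the other groups, whose ranges are alike. The log2 fold change was 5.72 (SE 1.06, adjusted p = 0.00510) against whole flies and 5.15 (SE 1.07, adjusted p = 0.00555) against larval tracheae.

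*Shab*, the delayed rectifier, was at 0.582, 1.24, 1.84 and 0.190 RPKM in adult tracheae, 0.320, 0.478, 0 and 0 RPKM in larval tracheae and 0, 0, 0.0245 and 0.0810 RPKM in whole flies. It was called higher than in whole flies (log2 fold change of 5.91, SE 1.34, adjusted p = 0.0117) and not against larval tracheae, with which adult libraries overlap (2.45, SE 1.40, adjusted p = 0.229). The *eag* channel had 16, 57, 279 and 35 exon reads in adult tracheae, 0, 4, 0 and 3 in larval tracheae and 1, 0, 0 and 0 in whole flies. Its ratio to the 1 whole-fly read was 386 with a counting interval from 68.8 to 15276 (adjusted p = 0.00510). Against larval tracheae its log2 fold change was 5.29 (SE 1.34, adjusted p = 0.0148), and the call was lost without adult trachea replicate 3 (adjusted p = 0.0655) and with total gene reads (adjusted p = 0.0686).

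*Elk*, a relative of *eag*, had 5, 24, 89 and 3 exon reads in adult tracheae and 0 in all larval and whole-fly libraries. It was at least 40.2-fold higher than in whole flies (adjusted p = 0.0299) and at least 26.9-fold higher than in larval tracheae (adjusted p = 0.0316). The first call was lost without any 1 of the whole-fly libraries (adjusted p = 0.05004 to 0.0641) and the second without any 1 of the larval ones (adjusted p = 0.0521 to 0.0566). With total gene reads *Elk* was called in neither (adjusted p = 0.0890 and 0.384). The genes *Shaw*, *Shal*, *Shawl*, *sei* and *KCNQ* were called in no comparison by edgeR. Against larval tracheae *Shaw*, *Shal* and *Shawl* were higher by DESeq2, and their edgeR adjusted p was 0.0819, 0.0526 and 0.0736. The means of these 5 genes ran from 0.253 RPKM (*Shawl*) to 1.54 RPKM (*sei*) in adult tracheae, from 0 (*Shal*) to 0.445 RPKM (*sei*) in larval tracheae and from 0.0804 RPKM (*Shawl*) to 1.34 RPKM (*KCNQ*) in whole flies. *KCNQ*, a relative of the mammalian M-current channels, ran from 0.391 to 2.09 RPKM in the adult tracheae and from 0.0478 to 3.99 RPKM in whole flies, with a 95% interval of their log2 fold change from -1.77 to 2.83.

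Potassium channels opened by calcium or sodium split between the comparisons. The calcium-activated channel gene *slo* was at 0.173, 3.79, 5.83 and 1.30 RPKM in adult tracheae, 0.115, 0.0686, 0 and 0.0482 RPKM in larval tracheae and 0.183, 0.160, 0.864 and 1.34 RPKM in whole flies. It was called higher than in larval tracheae (log2 fold change of 5.73, SE 1.23, adjusted p = 0.00645) and not against whole flies (2.84, SE 1.02, adjusted p = 0.0624). *SLO2*, its sodium-activated relative, was at 0.853, 0.726, 2.21 and 1.22 RPKM in adult tracheae, 0, 0, 0 and 0.0488 RPKM in larval tracheae and 1.29, 0.514, 0.652 and 1.25 RPKM in whole flies.

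For *SLO2* the contrast lay with the larval tracheae. Adult tracheae were higher than larval ones (log2 fold change of 6.60, SE 1.24, adjusted p = 0.00332) and larval tracheae lower than whole flies (-5.38, SE 1.30, adjusted p = 0.00603). Adult tracheae and whole flies overlapped, with a 95% interval from -0.15 to 2.40. *SK*, the small-conductance calcium-activated channel, was at 0.607, 2.93, 3.54 and 0.233 RPKM in adult tracheae, 0.602, 0.0128, 0.293 and 0.303 RPKM in larval tracheae and 0.0510, 0.00929, 0.0384 and 0.287 RPKM in whole flies. It was called only against whole flies (4.97, SE 1.20, adjusted p = 0.0151, and 0.05002 without whole-fly replicate 3), although 1 whole-fly library lies above the lowest adult one. Against larval tracheae the difference missed the threshold (2.78, SE 1.11, adjusted p = 0.0883).

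The inward rectifiers are known from fly epithelia such as the Malpighian tubule, and took the largest summed level of the classes in whole flies. They summed to 18.7, 35.5, 61.0 and 43.9 RPKM in adult tracheae, 3.94, 4.88, 1.77 and 3.09 RPKM in larval tracheae and 26.8, 21.7, 26.8 and 35.7 RPKM in whole flies. Adult tracheae and whole flies thus overlap, and larval tracheae lie below both.

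*Irk2* (FBgn0039081, chromosome 3R from 23513617 to 23519445), with all reads unique, had the highest group mean of the class in adult tracheae and in whole flies. It was at 7.87, 25.9, 38.4 and 30.2 RPKM in adult tracheae, 0, 1.84, 0 and 0.735 RPKM in larval tracheae and 15.4, 11.1, 8.36 and 16.1 RPKM in whole flies. Adult tracheae were higher than larval ones (log2 fold change of 5.38, SE 1.18, adjusted p = 0.00727), and larval tracheae were lower than whole flies (-3.66, SE 1.06, adjusted p = 0.0153). The difference between adult tracheae and whole flies was just called (1.6016, SE 0.51, adjusted p = 0.0422). It was lost without adult trachea replicate 2 or 3 or without any 1 of the whole-fly libraries (adjusted p = 0.0660 to 0.120).

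*Irk3* showed no such difference between the adult samples. It was at 2.97, 6.63, 6.50 and 10.9 RPKM in adult tracheae, 0, 1.53, 0.0951 and 0 RPKM in larval tracheae and 8.57, 4.63, 10.6 and 15.7 RPKM in whole flies. Adult tracheae and whole flies differed by -0.03 on the log2 scale (95% interval from -1.06 to 0.99). The adult tracheae were called higher than the larval ones (3.99, SE 1.33, adjusted p = 0.0471), a call that ended without any 1 of 7 libraries, all but larval trachea replicate 2 (adjusted p = 0.0559 to 0.0999). Larval tracheae were lower than whole flies (-3.95, SE 1.25, adjusted p = 0.0226, and 0.0651 without whole-fly replicate 4).

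*Irk1*, with few unique reads, was read in every library, at 7.86, 2.96, 16.1 and 2.79 RPKM in adult tracheae, 3.94, 1.51, 1.67 and 2.36 RPKM in larval tracheae and 2.75, 5.98, 7.83 and 3.89 RPKM in whole flies. All groups overlap, and edgeR called it in none of the comparisons on all libraries. Against larval tracheae it was higher by DESeq2, and by edgeR without adult trachea replicate 2 or 4 (adjusted p = 0.0854 with all libraries). It was the member with the highest mean in larval tracheae, at 2.37 ± 1.11 RPKM (SD, n = 4).

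Two-pore potassium channels leak potassium at rest, and *Ork1* is the founding fly member. Beside *Irk3*, *Ork1* was the member with a negative log2 fold change between adult tracheae and whole flies, with levels at 0.825, 0.553, 0.254 and 0.687 RPKM in adult tracheae, 0 in all larval libraries and 2.65, 2.53, 2.64 and 0.698 RPKM in whole flies. Whole-fly replicate 4 lies among the adult tracheae, and the difference was not called (-1.41, SE 0.77, adjusted p = 0.188). Larval tracheae were at least 58.4-fold lower than whole flies (adjusted p = 0.00154), and adult tracheae at least 20.9-fold higher than larval ones (adjusted p = 0.0152).

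The acid-sensitive channel genes *Task6* and *Task7* had 0 reads in larval tracheae too. *Task7* was at 0.563, 4.86, 3.06 and 6.42 RPKM in adult tracheae, against 0, 0.117, 1.05 and 1.49 RPKM in whole flies, and was at least 64.3-fold higher in adult than in larval tracheae (adjusted p = 0.00647). *Task6* was at 0.0394, 1.70, 1.599 and 0.608 RPKM in adult tracheae, against 0, 0.595, 0.0565 and 0.0746 RPKM in whole flies, and was at least 48.7-fold higher in adult than in larval tracheae (adjusted p = 0.0174). Neither was called against whole flies (adjusted p = 0.145 for *Task6* and 0.103 for *Task7*). The sleep gene *sand* was at 1.48, 0.0696, 1.35 and 1.36 RPKM in adult tracheae, 0.0736, 0, 1.71 and 0 RPKM in larval tracheae and 2.81, 0.153, 1.06 and 0 RPKM in whole flies, with overlap throughout and no call. In this class 0 of 4 members were called higher than in whole flies by edgeR, beside 16.1% of all genes (1 at an unadjusted p under 0.05, 1 by DESeq2 and 0 by limma).

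Related channel genes, and genes listed as partners of the channels or of their transmitters, were looked at as a separate list of 60. Of the 56 tested, 26 were higher in the adult tracheae than in whole flies, beside 16.1% of all genes, with a median log2 fold change of 2.91. By edgeR 0 were lower, beside 7.36%, while 1 was lower at an unadjusted p under 0.05, 1 by DESeq2 and 1 by limma. Against larval tracheae 27 of 56 were higher, beside 19.3% of all genes, and 1 was lower, beside 8.96%, with a median of 4.17. Between larval tracheae and whole flies 7 of 34 were higher and 6 lower, beside 22.1% and 27.4%. The gene that was lower in adult than in larval tracheae was *bou*, listed with receptor assembly, at 36.3, 84.2, 39.6 and 34.3 RPKM in adult tracheae, 426, 559, 645 and 498 RPKM in larval tracheae and 101.5, 78.8, 84.8 and 56.3 RPKM in whole flies. Adult over larval tracheae, its log2 fold change was -3.50 (SE 0.36, adjusted p = 0.000136). *bou* made up most of the summed level of its list of 6 genes in larval tracheae, and whether it acts on these receptors was not tested. The calmodulin gene *Cam* averaged higher in the larval libraries too, at 107.4 to 169 RPKM against 10.6 to 78.1 RPKM in the adult ones, without a call (-1.58, SE 0.57, adjusted p = 0.0626, adult over larval).

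Of 9 partners and relatives of the sodium channel 7 were higher in the adult tracheae than in whole flies, beside 16.1% of all genes. Against larval tracheae 3 were higher, beside 19.3%. The auxiliary subunit gene *tipE*, which raises sodium currents of *para*, was at 0.476, 2.02, 3.85 and 0.226 RPKM in adult tracheae, 0.0713, 0.0341, 0 and 0.450 RPKM in larval tracheae and 0 in all whole flies. Its relative *Teh3* was at 5.765, 6.94, 5.605 and 3.88 RPKM in adult tracheae and had 0 reads in every larval and whole-fly library, with adjusted p = 0.00295 against whole flies and 0.00178 against larval tracheae. Its adult values are even, unlike those of *para*.

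For potassium channels, *qvr* codes for a small protein that regulates *Sh* and sleep, and *Slob* for a protein that binds the *slo* channel. *qvr* was at 3.28, 5.74, 4.62 and 2.64 RPKM in adult tracheae, 0.143, 0.437, 0 and 0 RPKM in larval tracheae and 0, 0.0595, 0.0818 and 0.288 RPKM in whole flies (adjusted p = 0.00227 against whole flies and 0.00982 against larval tracheae). *Slob* was at 3.07, 5.42, 4.80 and 2.17 RPKM in adult tracheae, 0.0396, 0.360, 0.433 and 0.0832 RPKM in larval tracheae and 0, 0.110, 0 and 0.05001 RPKM in whole flies (adjusted p = 0.00144 against whole flies and 0.00348 against larval tracheae). Adult values of both genes are above all others.

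Genes that supply the transmitters were read beside their receptors. The vesicular acetylcholine transporter gene *VAChT* was at 1.04, 1.80, 3.75 and 0.444 RPKM in adult tracheae, 0.0616, 0.392, 0 and 0.0172 RPKM in larval tracheae and 0, 0.0428, 0 and 0 RPKM in whole flies (adjusted p = 0.0371 against larval tracheae and 0.00397 against whole flies). *Ace*, which codes for the enzyme that breaks acetylcholine down, was also called higher than in whole flies (4.53, SE 0.86, adjusted p = 0.00549). The GABA-making enzyme gene *Gad1* was at 1.53, 12.9, 16.1 and 8.56 RPKM in adult tracheae, 0, 0, 0 and 0.299 RPKM in larval tracheae and 0.151, 0.220, 1.81 and 0 RPKM in whole flies. Of other chloride channels, the histamine receptor gene *HisCl1* was at 2.18, 2.43, 4.57 and 3.33 RPKM in adult tracheae, 0.233, 0, 0 and 0 RPKM in larval tracheae and 0 in whole flies. Against whole flies *CG6927* of the same list went the other way. It was at 18.5, 36.2, 0.859 and 70.0 RPKM in adult tracheae and at 111 to 209 RPKM in whole flies. The list of 8 thus summed to 37.3 to 79.9 RPKM in adult tracheae and to 114 to 214 RPKM in whole flies. Ionotropic glutamate receptors had 2 of 13 tested genes higher in the adult tracheae than in whole flies and 4 of 13 higher than in larval tracheae, close to the 16.1% and above the 19.3% of all genes. One of them, *CG11155*, was at 1.55, 5.68, 7.17 and 1.04 RPKM in adult tracheae and at 4.495, 2.52, 3.42 and 3.30 RPKM in larval tracheae. Both were called higher than whole flies (adjusted p = 0.00209 and 4.47e-05), where it was at 0.0866, 0.0158, 0 and 0 RPKM.

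Markers of neurons also had their highest sums in adult tracheae. Their list of 19 summed to 48.7, 171, 198 and 48.9 RPKM in adult tracheae, 31.8, 30.7, 28.6 and 24.6 RPKM in larval tracheae and 13.4, 8.75, 9.79 and 15.6 RPKM in whole flies. Of the 19 markers 17 were higher in the adult tracheae than in whole flies, beside 16.1% of all genes. Against larval tracheae 14 were higher, beside 19.3%. In larval tracheae *Syx1A*, a membrane fusion gene that is not confined to neurons, made up most of the sum at 19.6 to 26.7 RPKM. Of the 19 markers only *brp* and *VGlut* had 0 reads there. *elav* was at 0.186 to 0.650 RPKM in larval tracheae and 0.0945 to 0.416 RPKM in whole flies. *unc-13* was at 1.59 to 2.76 RPKM in larval tracheae and was called higher there than in whole flies, as was *Syx1A*. For 24 of the 37 channel genes adult trachea replicates 2 and 3 were the highest adult libraries, as for 17 of the 19 neuron markers. The share of all genes with this order was not counted, so whether it is particular to these genes is not known.

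The summed glia markers also had replicates 2 and 3 as the highest adult libraries, at 787, 1900, 1682 and 836 RPKM. They summed to 535 to 3494 RPKM in the larval libraries and to 84.7 to 144 RPKM in whole flies. Most of this sum was *Gs2*, a glutamine synthetase gene, at 724 to 1695 RPKM in the adult and 481 to 3450 RPKM in the larval libraries. Without *Gs2* the glia markers summed to 62.9, 206, 191 and 75.7 RPKM in adult tracheae, 43.5 to 53.4 RPKM in the larval libraries and 31.9 to 36.6 RPKM in whole flies. *repo*, which defines glia, had 0 reads in larval tracheae and was at 1.43, 0.0459, 0.290 and 0.565 RPKM in adult tracheae. Its order thus differs from that of the sum. *moody*, at 4.15, 3.14, 1.07 and 0.625 RPKM, was also highest in adult trachea replicate 1, and *wrapper* in replicate 4. *alrm*, *Eaat1*, *Gs2*, *Gat*, *axo* and *nrv2* were highest in replicates 2 and 3. Muscle markers ranged between 493 and 1335 RPKM for adult tracheae, between 46.6 and 2325 RPKM for larval tracheae and between 354 and 658 RPKM for whole flies. The part that neurons, glia or other cells in the preparation have in the channel levels was not tested. The summed level of the 35 channel genes other than *nAChRbeta3* and *Irk1* was 31.6, 117, 162 and 82.4 RPKM in adult tracheae, so the lowest adult library lies within the range of 25.5 to 46.1 RPKM of whole flies, while larval tracheae were at 2.25 to 6.65 RPKM.

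**Figure D4:**
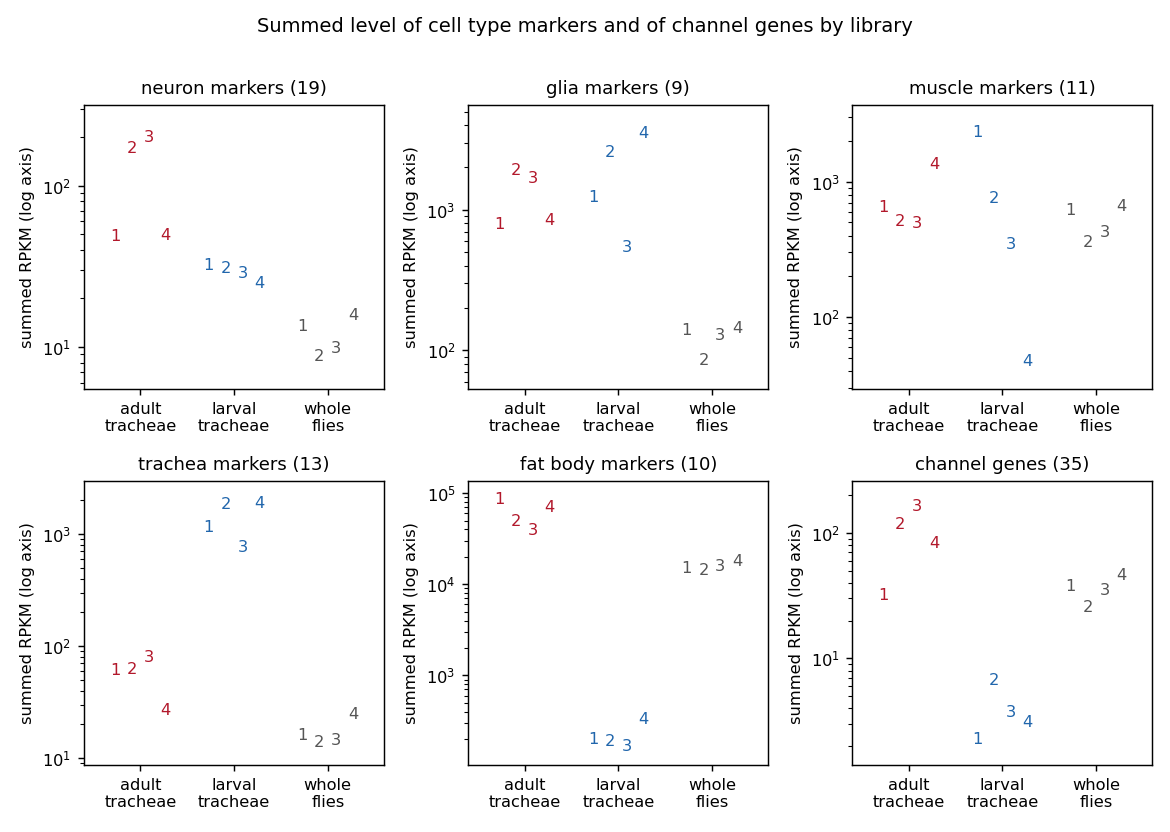
Summed RPKM on log axes of marker genes of neurons, glia, muscle, trachea and fat body and of 35 channel genes (without *nAChRbeta3* and *Irk1*, which overlap other genes), with the digits 1 to 4 standing for replicate libraries of adult tracheae, larval tracheae and whole flies from left to right. Adult trachea replicates 2 and 3 are highest for neuron markers (171 and 198) and channel genes (117 and 162), whereas trachea markers are highest in larval tracheae (754 to 1868).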

How the data were processed

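The labels and the study's methods describe cDNA made from oligo dT primed RNA, amplified by PCR and sequenced on a NextSeq 500, with 4 libraries each of adult tracheae, larval tracheae and whole flies. The authors mapped the reads to BDGP6 with the CLC Genomics Workbench and deposited, per library, the counts of total and unique reads in genes, exons, introns and junctions. The deposited RPKM values were made by the authors from the total exon reads, the exon length and the total gene reads of each library. Use of strand and the Workbench version are not given in the sources used here.

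Groups were taken from the sample titles. Counts of total exon reads were fitted in edgeR 4.0.16 (R 4.3.3) with TMM scaling, with a minimum of 10 reads in 2 or more of a comparison's 8 libraries. The quasi-likelihood test was run over all genes of each comparison, with Benjamini-Hochberg adjusted p-values, and a call needed an adjusted p under 0.05 and a fold above 1.5. Fold changes are log2, tracheae over whole flies and adult over larval tracheae, and their SE was derived from the F statistic. A gene at 0 reads in a group got a bound from 3 reads over that group. A gene with 1 to 3 reads in a group got a ratio with a 95% counting interval. Summed levels used the deposited RPKM. Alternatives were total gene reads, unique reads, DESeq2 1.42.0, limma 3.58.1 on log2(RPKM + 0.1) or log2(RPKM + 1), other scalings and filters, a length offset, a replicate block and the omission of libraries. The fits were checked on simulated data. All 37 members were described, those called with full values. The members, the marker lists and the list of related genes were chosen with earlier results of these data known. Positions were compared with Ensembl release 115.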

Additional observations from a re-analysis of the deposited data

Results flagged for a closer look

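Within groups of 4 libraries with at least 10 exon reads in the library with the most reads, 16 of 82 groups (19.5%) held a library farther from the others than Dixon's critical value at the 95% level, where chance gives about 1 in 20. Among adult tracheae, replicate 3 stood high for *nAChRalpha3* (1.094 RPKM) and *GluClalpha* (5.552 RPKM), and replicate 2 stood low for *sand* (0.06956 RPKM). Among larval tracheae, replicate 4 stood high for *nAChRalpha6* (0.236 RPKM) and *GluClalpha* (0.2214 RPKM), replicate 2 for *Irk3* (1.528 RPKM) and *Grd* (0.7184 RPKM), and replicate 3 for *sand* (1.713 RPKM). Among whole flies, replicate 2 stood high for *nAChRalpha6* (0.2862 RPKM), *Task6* (0.5951 RPKM) and *Ca-alpha1T* (0.1232 RPKM), replicate 1 for *Shaw* (0.8522 RPKM), and replicate 3 for *Shal* (0.3627 RPKM). Whole-fly replicate 4 stood high for *SK* (0.2872 RPKM) and *cac* (0.5864 RPKM) and low for *Ork1* (0.6978 RPKM). In most of these larval and whole-fly groups the other libraries had few exon reads or none.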

How the results depend on the processing

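The number of channel genes higher in the adult tracheae than in whole flies was 16 and ranged between 10 and 20 when single libraries were left out. It was 23 with DESeq2, 9 with limma on log2(RPKM + 1), 9 without adult trachea replicates 3 and 4, and 2 without replicates 2 and 3. Against larval tracheae it was 25, between 18 and 27 with single libraries left out, 31 with DESeq2, 11 without replicates 3 and 4 and 9 without replicates 2 and 3. With the filterByExpr filter on low counts, 25 members were tested against larval tracheae and 18 were higher, beside 17.99% of all genes. The omission of replicates 2 and 3, the libraries with the highest neuron markers, was chosen after seeing the data. With total gene reads, introns included, 4 of 33 genes tested (*nAChRalpha1*, *Shab*, *SK* and *Grd*) were higher in larval tracheae than in whole flies, beside 22.9% of all genes. Exon reads gave 0 there. The members' median in that comparison was 0.25 with total gene reads and -1.15 with exon reads. The log2 fold change of *Lcch3* turned to 0.41 with total gene reads, with no call. The cause was not tested. Of the 6 genes lower in larval tracheae than in whole flies, *SLO2*, *Irk2* and *Ork1* stayed called in every alternative that could test them. With single libraries left out the count of lower genes was between 4 and 6, beside 21.7 to 26.35% of all genes. No alternative gave a channel gene lower in adult tracheae, in either comparison. The RPKM scale of limma moved the median of all genes to -0.37 between adult tracheae and whole flies and to -0.87 between larval tracheae and whole flies, with the members' medians at 2.14 and -1.96.

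With the replicate number as a replicate block, 13, 21 and 4 genes were called in place of 16, 25 and 6. Libraries with the same number deviated from their group means with correlations between -0.093 and 0.044, so the numbers do not pair them. Low counts limit the larval and whole-fly values, where many members had fewer than 10 exon reads.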
